A study of Mus musculus with 28 samples.

Results

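The 36 genes described here encode the coats, GTPases, cargo receptors and membrane-fusion or scaffold proteins that move proteins between the endoplasmic reticulum (ER) and the Golgi. They were chosen by name, and the set was picked because Copg1 was among the clearest falls in these data. The rule names no comparison, and the choice was taken to rest on the embryonic comparisons with wild type. The embryonic differences from wild type are therefore given as a description, with no p-value for any of the 36. All 36 were listed in both deposited tables, of 13846 genes in the embryonic table and 14104 in the adult table, and all 36 passed the filter on low values in both.

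The study measured RNA in a mouse line carrying a knockout of MYT1L, a neuronal zinc-finger transcription factor. Cortex at the embryonic stage E14.5 came from 6 wild-type (WT), 6 heterozygous (Het) and 4 homozygous (Hom) animals, and adult prefrontal cortex (PFC) from 6 WT and 6 Het animals. As labelled, females made up 5 of the WT, 3 of the Het and 3 of the Hom embryos, and 3 animals of either sex made up each adult group. The labels name no strain, treatment, allele, adult age or number of lines, and no homozygous adult was analysed here. The titles number separate animals, and p-values measure the spread between these libraries. Libraries are named below by labelled sex and animal number, F for female and M for male. The deposited values had been adjusted by the authors, so sequencing depth is unknown, and the number of libraries limits the precision.

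Myt1l itself was 45.9 to 66.6 CPM (counts scaled to a common library total) in WT embryos, 30.6 to 59.5 in Het and 18.1 to 23.3 in Hom. The 4 Hom libraries lay below every Het and WT library, while the Het range overlapped the WT range. Myt1l was not called lower in Het embryos over all libraries. With each library left out in turn, its Het difference ran from -0.54 to -0.26 on the log2 scale. In the PFC, Myt1l was 146.0 to 168.2 CPM in WT and 104.8 to 120.6 in Het, with no overlap. In the library labelled Het F10 the Y-linked gene Ddx3y stood at 21.6 CPM, and in the library labelled Het M11 it was listed at 0, against their labelled sexes. Embryonic results are therefore also given without these 2 libraries where a call of a member changed. The 8 projection-neuron markers summed to 1485 to 1871 CPM in WT embryos, 1641 to 2225 in Het and 1776 to 2081 in Hom. In the PFC they summed to 1734 to 1960 in WT and 1713 to 2070 in Het, so these markers were present in both tissues. Among these markers, Tbr1 was called higher in Hom, and in Het the called markers included Tbr1 and Neurod6, both higher, and Camk2a, lower. Choroid plexus markers summed to 1414 to 4039 CPM in WT embryos, 3030 to 5250 in Het and 1603 to 2923 in Hom, and the GABAergic and ventral telencephalic list to 23.9 to 53.9, 32.7 to 91.1 and 37.9 to 120.4 CPM. Of the 8 genes of the latter list, Dlx1, Ppp1r1b and Sp9 were called higher in Hom, and no choroid plexus gene of the 5 tested was called. Their part in the results below was not tested. In bulk tissue, fewer cells of a type and less RNA per cell cannot be told apart.

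Newly made secretory and membrane proteins leave the ER in vesicles coated by COPII. The GTPase SAR1 starts the coat, SEC23 and SEC24 form its inner, cargo-selecting layer, and SEC13 and SEC31 form the outer cage at exit sites organised by SEC16. COPI, a heptameric coat recruited by ARF GTPases once an exchange factor such as GBF1 has loaded them with GTP, carries material back from the Golgi to the ER and between Golgi cisternae. KDEL receptors return escaped ER residents, p24 proteins and lectins select cargo, SEC22B helps vesicles fuse, and GOLGA2 and GORASP2 tether and stack the Golgi. Growing neurons depend on this route for the membrane and receptors of axons, dendrites and synapses.

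Copg1 encodes one of the gamma subunits of COPI, with Copg2 encoding the alternative one. Its promoter, from 250 bases before to 50 bases after the RefSeq start (build GRCm38.p6, chr6:87887690-87887989, plus strand), is shown because this gene had the largest embryonic fall of the set. The promoter of Arf5 (chr6:28423354-28423653, plus strand) is shown beside it because this gene had the largest embryonic rise. Capitals mark AAGTTT, the core bound by MYT1-family zinc fingers, which occurs once in the Arf5 promoter and in neither orientation in that of Copg1.
Copg1: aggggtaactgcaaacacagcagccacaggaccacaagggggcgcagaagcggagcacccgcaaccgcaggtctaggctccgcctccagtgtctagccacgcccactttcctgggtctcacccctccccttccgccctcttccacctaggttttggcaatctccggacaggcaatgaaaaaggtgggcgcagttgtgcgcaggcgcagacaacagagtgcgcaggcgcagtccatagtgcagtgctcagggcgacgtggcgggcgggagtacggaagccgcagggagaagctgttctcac
Arf5: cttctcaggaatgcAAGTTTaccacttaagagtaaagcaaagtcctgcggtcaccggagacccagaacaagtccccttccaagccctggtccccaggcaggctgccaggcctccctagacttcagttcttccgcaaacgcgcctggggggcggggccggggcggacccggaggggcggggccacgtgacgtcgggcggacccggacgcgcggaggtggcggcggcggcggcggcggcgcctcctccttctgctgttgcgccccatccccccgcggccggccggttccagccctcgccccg
RefSeq promoters were matched for 32 of the 36 genes, 36 promoters in all. AAGTTT, searched on both strands, lay in 6 of these 36 promoters (16.7%), those of Arf5, Kdelr1, Sar1b, Sec13, Sec23b and Sec31a, against 14.4% of 32851 promoters. These 6 include genes that were higher and genes that were lower in the mutant embryos. A match of letters is a description of the sequence and not a site of binding.

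A second motif was more frequent among the transport genes. TGACGTGG, an element through which the ER stress factors XBP1 and ATF6 can act, lay on either strand in 8 of the 36 promoters (22.2%), belonging to 7 genes, against 0.676% of all 32851. It does not overlap AAGTTT. The 7 stretches are printed with 10 bases on each side, 5′ to 3′ along each gene's strand, from the RefSeq promoters of build GRCm38.p6. Capitals mark TGACGTGG, or its reverse complement CCACGTCA.
Arf1 (chr11:59228229-59228256, minus strand): cggcaggcgcTGACGTGGctgccgtcag
Copb1 (chr7:114254691-114254718, minus strand): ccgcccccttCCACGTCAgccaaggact
Copb2 (chr9:98563714-98563741, plus strand): cccggaagttCCACGTCAgtgggttggc
Gbf1 (chr19:46152536-46152563, plus strand): aggctagttaCCACGTCAgtgagctgac
Kdelr3 (chr15:79516368-79516395, plus strand): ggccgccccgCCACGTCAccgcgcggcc
Sec23a (chr12:59011994-59012021, minus strand): tcctccccttTGACGTGGcagaggcggc
Sec24d (chr3:123267460-123267487, plus strand): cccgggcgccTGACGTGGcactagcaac
Counting the start as 0, the element ran from -28 to -21 in Copb1, from -7 to 0 in Copb2, from -12 to -5 in Gbf1, from -30 to -23 in Kdelr3, from -26 to -19 in Sec24d and from 6 to 13 in Sec23a. In Arf1 it lay at 21 to 28 from one annotated start and at -84 to -77 from the other. None of these 7 genes was called in the main fit over all libraries in any comparison below. The related element TGACGTCA occurred in the promoter of Cope, 1 of 36 against 1.79% of all promoters, and the full ER stress response element (ERSE) occurred in none of the 36 against 0.119% of all. CCAAT alone lay in 36.1% of the 36 promoters and 37.4% of all.

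A gene was called when its p-value from limma, adjusted over all genes tested by the Benjamini-Hochberg method, was below 0.05. Calls over all libraries are those of the main fit, before any alternative setting. Differences are given as log2 of CPM plus 0.5, with the standard error (SE) of the fit, and levels as CPM. In E14.5 Hom against WT, 7 of the 36 genes were called, beside 7.6% of all 12429 genes tested (944 genes, 401 higher and 543 lower). Arf5 and Tmed2 were higher, and Copg1, Sec13, Cope, Tmed9 and Copz1 were lower. In E14.5 Het against WT, 6 were called, beside 5.83% of all genes (724 genes, 353 higher and 371 lower). Arf5 and Tmed2 were higher, and Sec23b, Copg1, Sec13 and Cope were lower. Both comparisons use the same 6 WT libraries, and the set was chosen on them, so nothing is read from these counts. The median difference over the 36 genes was -0.08 in Hom and -0.07 in Het, beside 0.02 and 0.03 over all genes tested. With every library centred on its median gene, the split over all genes became 294 higher and 746 lower in Hom and 213 and 509 in Het. With a correction for GC content and length it became 268 and 605 in Hom and 121 and 407 in Het. Under both, no called member changed sign. Without the libraries labelled Het F10 and Het M11, 8 of the 36 were called in each comparison. Over all genes the Het count rose as well, to the number given in the last section, and the Hom count stayed within 1.5-fold of 944. In Het, Sec13 and Cope were no longer called, and Copa, Sec24c and Sec31a (lower) and Sar1b (higher) were. In Hom, Arcn1 (higher) was added.

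**Figure D1:**
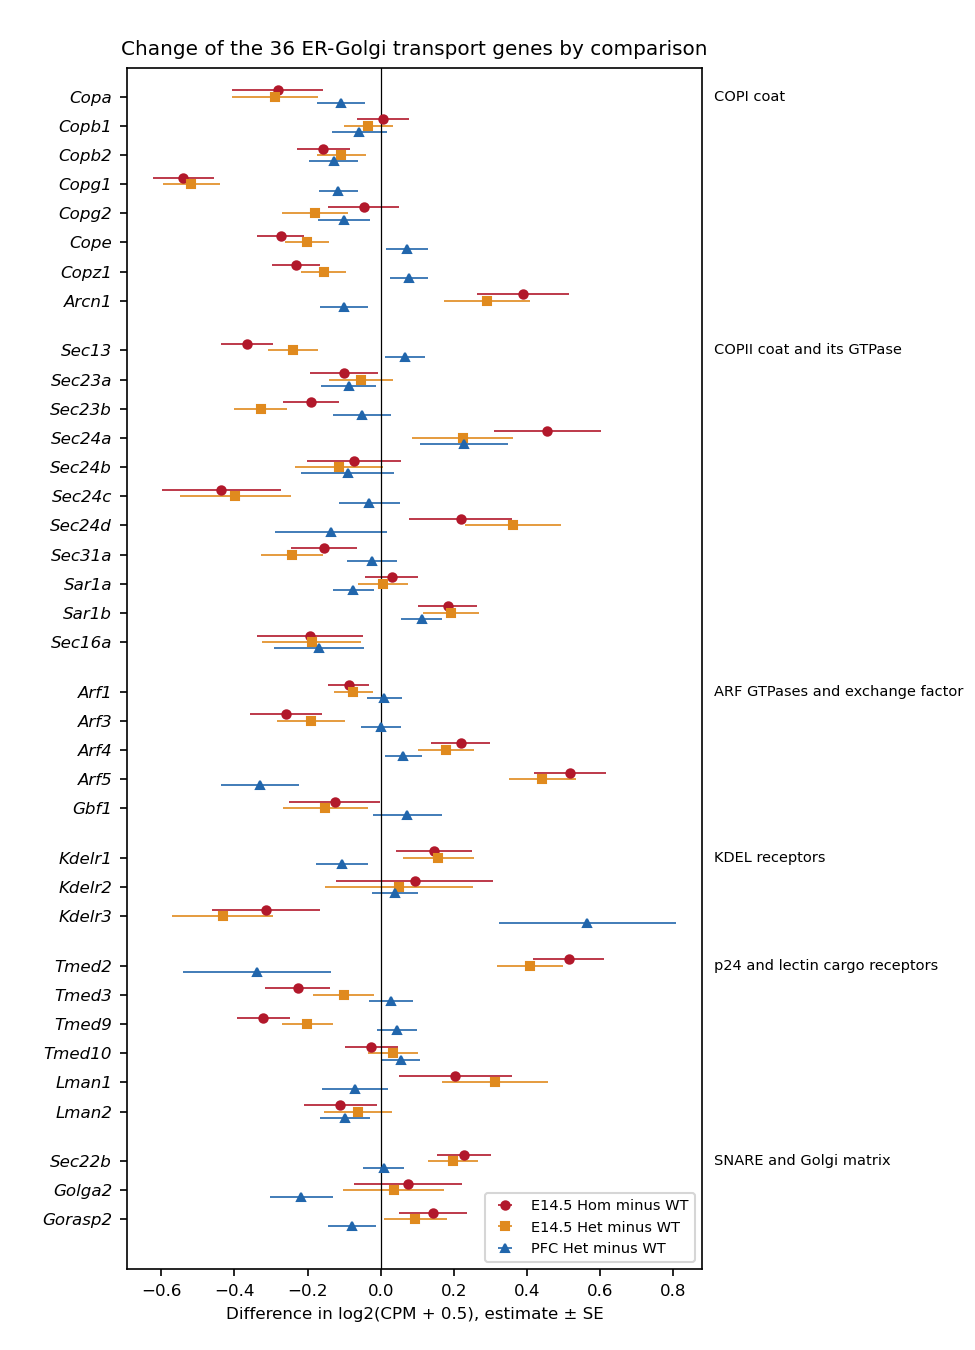
Difference in log2(CPM + 0.5) for each of the 36 genes, grouped by role, for E14.5 Hom minus WT (circles), E14.5 Het minus WT (squares) and PFC Het minus WT (triangles); bars are the SE of the limma fit. Copg1 lies furthest left in the embryo at -0.54 and -0.52 and at -0.12 in the PFC, while Arf5 and Tmed2 lie right of 0 in both embryonic comparisons and left of 0 in the PFC.

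Among the COPI coat subunits the embryonic differences were uneven. In WT embryos Copg1 ran from 239 CPM (F05) over a median of 270.3 to 280.1 (F04). Het embryos ran from 159 (F07) over 191 to 231 (M07), and the 4 Hom embryos stood at 175 (F04), 178 (F01), 178 (F09) and 207 (M02). Every mutant library was below every WT library. The difference from WT was -0.54 (SE 0.08) in Hom and -0.52 (SE 0.08) in Het, so mean levels were 69.1% and 71.6% of WT. Of the exon bases of Copg1 (chr6:87887814-87913595, plus strand, GENCODE vM21), 8.55% are shared with the antisense gene Gm26636, which the tables do not list. Whether counting used strand is not given in the sources used here, so reads of the 2 genes cannot be told apart there.

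Copg2, whose product takes the same place in the coat, ran from 39.5 over a median of 46.8 to 47.7 CPM in WT embryos and from 36.01 over 40.4 to 44.7 in Het. In Hom embryos it was 37.6 (F04), 42.1 (M02), 43.6 (F09) and 53.9 (F01). All 3 ranges overlapped, and Copg2 was not called, at -0.05 (SE 0.10) in Hom and -0.18 (SE 0.09) in Het. The Copg1 share of the pair, per kilobase of transcript, was 84.9% ± 1.37 in WT (SD, n = 6), 81.7% ± 1.89 in Het (n = 6) and 79.9% ± 2.93 in Hom (n = 4). By library it ran from 82.7% to 86.6% in WT, 79.4% to 84.2% in Het and 75.9% to 82.5% in Hom, so Het overlapped both. These shares use the Copg1 values taken to have chosen the set and were not tested. Of the exon bases of Copg2, 17.8% overlap the imprinted gene Mest, whose mean level was 29.6 CPM in WT and 35.3 in Hom embryos.

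Cope, the epsilon subunit and the most abundant COPI gene per kilobase, ran from 451 over 483 to 510.2 CPM in WT embryos and from 383 over 415 to 439 in Het. The Hom embryos stood at 363 (F09), 380.2 (M02), 408 (F04) and 442 (F01). Both mutant groups lay below the WT range, by -0.27 (SE 0.06) in Hom and -0.20 (SE 0.06) in Het. The Hom call of Cope was lost without Hom F09, at -0.22, and without the trend and robust settings of limma. In Het it held in only 9 of 28 alternative fits. It was lost without 12 of the 16 libraries, each left out alone, with values between -0.22 and -0.19 over all 16, and at -0.17 without both Het F10 and Het M11. Copz1, the zeta subunit, ran from 567 over 604 to 632 CPM in WT embryos, and stood at 489.7 (F09), 503 (M02), 525 (F04) and 526.2 (F01) in Hom. The Hom libraries of Copz1 did not overlap WT and differed by -0.23 (SE 0.07). That call was lost without any single library of Hom F01, F04, F09 or M02 or of WT F04, F06 or F12, with values between -0.25 and -0.21. With all libraries kept, it was also lost without the trend and robust settings. The same held with the directions removed by the authors' adjustment (RUVr) as covariates. In Het, Copz1 ran from 483.5 over 537 to 610.1 CPM, overlapped WT and was not called, at -0.16 (SE 0.06), but was called without Het M07, at -0.18.

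The other 4 COPI subunits were not called in either comparison over all libraries. Copa (alpha) was at -0.28 (SE 0.12) in Hom and -0.29 (SE 0.12) in Het, Copb2 (beta prime) at -0.16 (SE 0.07) and -0.11 (SE 0.07), and Copb1 (beta) at 0.01 (SE 0.07) and -0.03 (SE 0.07). Arcn1, the delta subunit, was at 0.39 (SE 0.13) and 0.29 (SE 0.12), the one COPI subunit with positive values in both. Its Hom libraries ran from 47.1 to 71.6 CPM and overlapped the WT range of 33.2 to 48.1. Without both Het F10 and Het M11, Copa was called in Het at -0.41 and Arcn1 in Hom at 0.39. Copa was also called in Het without Het F10 alone, at -0.38. Arcn1 was also called in Hom without Het F07 at 0.39, without Het F10 at 0.38 and without WT F05 at 0.43. With all libraries kept, it was called in Hom under a filter of 5 CPM, at 0.39.

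**Figure D2:**
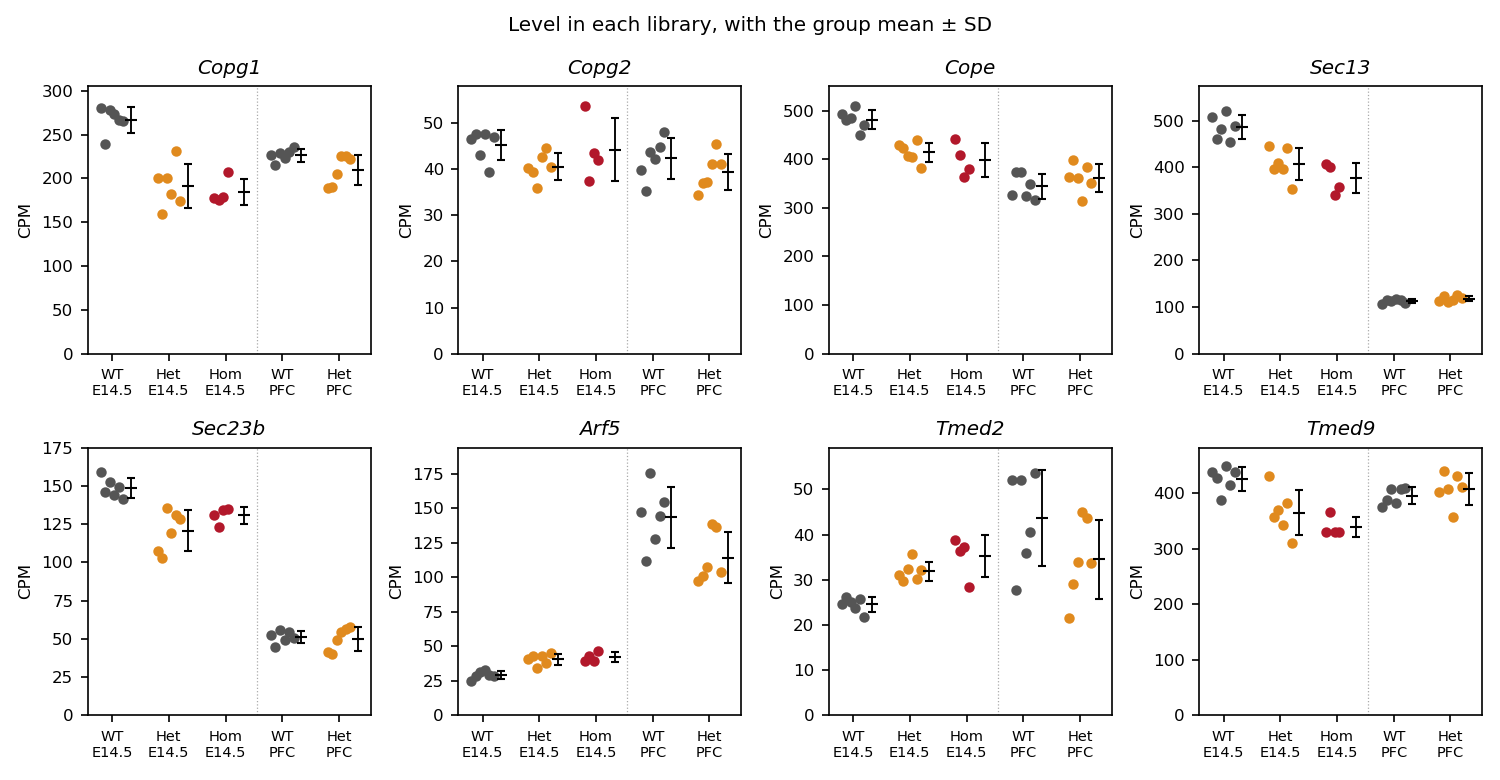
CPM of Copg1, Copg2, Cope, Sec13, Sec23b, Arf5, Tmed2 and Tmed9 in each library (points) by genotype, embryonic cortex left and adult PFC right of the dotted line, with the group mean and SD (bars). Mutant embryos lie below all WT embryos for Copg1, Cope, Sec13 and Sec23b and above them for Arf5 and Tmed2, and the PFC groups overlap in all 8 panels.

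In the COPII coat, Sec13, which also serves in the nuclear pore, ran from 455 over 486 to 521 CPM in WT embryos. Het embryos ran from 352 over 403 to 447 CPM, and Hom embryos stood at 340.0 (F09), 359 (M02), 400.2 (F04) and 407 (F01). No mutant library reached the WT range. The difference was -0.37 (SE 0.07) in Hom and -0.24 (SE 0.07) in Het, where it was called in only 16 of 28 alternative fits. The Het call was lost without any single library of Het F07, M01 or M11, WT F04, F06, F09 or M03, or Hom M02, with values between -0.27 and -0.21 over all 16 libraries left out. Without Het F10 and Het M11, the Het difference of Sec13 was -0.20 and was not called.

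Sec23b ran from 141.5 over 148 to 159 CPM in WT embryos, from 103 over 124 to 135.5 in Het, and stood at 123 (F04), 131 (F01), 134 (F09) and 135 (M02) in Hom. Both mutant groups lay wholly below WT. The difference was -0.33 (SE 0.07) in Het, which was called, and -0.19 (SE 0.08) in Hom, which was not. Without Het F07 the Het value was -0.27 and was not called, and the Het call was also lost without the trend and robust settings of limma. With the correction for GC content and length, the Hom difference was called, at -0.30 (SE 0.08). The direct difference of Hom from Het for Sec23b was 0.14 (SE 0.08, 95% interval -0.03 to 0.30, adjusted p = 0.957 by limma) and did not pass the threshold. That p-value is not taken as independent of the choice of the set, as set out below. Its paralog Sec23a was at -0.10 (SE 0.09) in Hom and -0.05 (SE 0.09) in Het and was not called. The Sec23b share of the pair per kilobase was 75.03% ± 1.19 in WT (SD, n = 6), 70.8% ± 1.44 in Het (n = 6) and 73.7% ± 1.401 in Hom (n = 4).

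The 4 Sec24 genes, whose products choose different cargoes, did not share a direction, and none was called over all libraries. Sec24c, the most abundant, was at -0.44 (SE 0.16) in Hom and -0.40 (SE 0.15) in Het, Sec24b at -0.07 (SE 0.13) and -0.11 (SE 0.12), Sec24a at 0.46 (SE 0.15) and 0.22 (SE 0.14), and Sec24d at 0.22 (SE 0.14) and 0.36 (SE 0.13). The Sec24a libraries of Hom, at 10.1 to 11.0 CPM, lay above the WT range of 6.03 to 9.31. By their outermost GENCODE vM21 ends, Sec24a and Sar1b lie 52 bases apart on opposite strands. Their RefSeq promoters, at chr11:51756785-51757084 and chr11:51763413-51763712, lie further apart. Sar1b, which loads chylomicrons as well as ordinary cargo, ran from 162 over 177 to 196 CPM in WT embryos, from 176 over 207 to 227 in Het, and stood at 186 (F01), 195 (F09), 198 (M02) and 228 (F04) in Hom. Its groups overlapped, at 0.18 (SE 0.08) in Hom and 0.19 (SE 0.08) in Het, and Sar1a was at 0.03 (SE 0.07) and 0.01 (SE 0.07). Sec31a, the partner of Sec13 in the cage, was at -0.16 (SE 0.09) and -0.24 (SE 0.08), and the exit-site scaffold Sec16a at -0.19 (SE 0.14) and -0.19 (SE 0.14). None of these was called over all libraries. Without both Het F10 and Het M11, Sec24c was called in Het at -0.53, Sec31a at -0.32 and Sar1b at 0.26. Without Het F10 alone the same 3 were called, at -0.52, -0.29 and 0.25. Sec24a was called in Hom without WT F06, at 0.50, and under a filter of 5 CPM, at 0.46.

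Arf5 was the ARF GTPase that stood apart. It ran from 24.4 over 28.8 to 32.6 CPM in WT embryos, from 33.9 over 41.7 to 44.6 in Het, and stood at 38.9 (F09), 39.1 (F01), 42.7 (F04) and 46.7 (M02) in Hom. Every mutant library was above every WT library, by 0.52 (SE 0.10) in Hom and 0.44 (SE 0.09) in Het. Of the exon bases of Arf5 (chr6:28423560-28426602, plus strand), 16.4% overlap Gcc1, whose mean level was 5.22 CPM in WT, 7.19 in Het and 6.27 in Hom, so reads there cannot be told apart. Arf1, the main COPI recruiter, ran from 768 over 786 to 799 CPM in WT embryos and from 688 over 750.4 to 771 in Het, and stood at 697 (F09), 709.6 (M02), 751 (F04) and 791 (F01) in Hom. Arf1 varied least of the 36 among WT embryos (coefficient of variation 1.39%). It was not called, at -0.09 (SE 0.06) and -0.08 (SE 0.05). Arf3 was at -0.26 (SE 0.10) and -0.19 (SE 0.09), Arf4 at 0.22 (SE 0.08) and 0.18 (SE 0.08), and the exchange factor Gbf1 at -0.13 (SE 0.12) and -0.15 (SE 0.12), all uncalled over all libraries. Without Het M07, Arf3 was called in Hom at -0.25 and in Het at -0.26, and Arf4 in Het at 0.22. For Arf4, 17.7% of exon bases overlap Pde12 or Arf4os.

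No KDEL receptor gene was called in the embryo in the main fit over all libraries. Kdelr2, the most abundant, ran from 126 over 155 to 207.5 CPM in WT embryos and from 108 over 200.03 to 228 in Het, and stood at 127 (F04), 149.5 (F01), 199 (F09) and 205 (M02) in Hom. It varied more among WT embryos (coefficient of variation 18.3%) than most of the set, and the groups overlapped, at 0.09 (SE 0.22) and 0.05 (SE 0.20). Kdelr1 was at 0.15 (SE 0.10) and 0.16 (SE 0.10). Kdelr3 was at -0.31 (SE 0.15) and -0.43 (SE 0.14). Its Het difference was called without Het M07 at -0.44, without Het M11 at -0.47 and without WT M03 at -0.55. With all libraries kept, it was also called without sex as a covariate (-0.46), with median centring (-0.46) and with the GC and length correction (-0.48).

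Among the cargo receptors, 2 p24 proteins were called in opposite directions. Tmed2 ran from 21.8 over 24.8 to 26.3 CPM in WT embryos, from 29.8 over 31.6 to 35.8 in Het, and stood at 28.4 (M02), 36.3 (F04), 37.3 (F09) and 38.8 (F01) in Hom. All mutant libraries lay above all WT libraries, by 0.51 (SE 0.10) in Hom and 0.41 (SE 0.09) in Het. At 98% identity or more, 29.1% of the Tmed2 transcript has a copy in Gm10698, so the level of Tmed2 is uncertain to that extent. Tmed9, the most abundant p24 gene per kilobase, ran from 387 over 433 to 448 CPM in WT embryos and from 309.8 over 363 to 431 in Het. The 4 Hom libraries of Tmed9 stood at 329 (F01), 329.7 (F09), 330.2 (M02) and 367 (F04). The Hom libraries were all below WT, at -0.32 (SE 0.07), while Het overlapped WT and was not called, at -0.20 (SE 0.07). The Hom call was lost without the trend and robust settings. The Het value was called without Het F02 at -0.26 and without Het M07 at -0.22. It was also called without sex as a covariate and with the GC and length correction, at -0.23 in each. Tmed3 was at -0.23 (SE 0.09) and -0.10 (SE 0.08), and Tmed10, of which 44.5% of the transcript has a copy in Tmed10-ps, at -0.03 (SE 0.07) and 0.03 (SE 0.07). The lectins Lman1 and Lman2 were at 0.20 (SE 0.15) and -0.11 (SE 0.10) in Hom and at 0.31 (SE 0.14) and -0.06 (SE 0.09) in Het. None of these 4 was called over all libraries.

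The SNARE gene Sec22b ran from 83.7 over 90.9 to 96.5 CPM in WT embryos, from 93.7 over 102 to 117 in Het, and stood at 100.3 (F09), 104 (M02), 105 (F04) and 114 (F01) in Hom. The Hom libraries lay above WT, at 0.23 (SE 0.07), and Het overlapped it, at 0.20 (SE 0.07). Neither was called over all libraries. Sec22b was called in Hom without Het F07 at 0.22, without Het M07 at 0.22 and without WT M03 at 0.26, and in Het without Het M07 at 0.22. With all libraries kept, it was called in Hom under a filter of 5 CPM, at 0.23. The Golgi scaffold genes Golga2 and Gorasp2 were at 0.07 (SE 0.15) and 0.14 (SE 0.09) in Hom and at 0.04 (SE 0.14) and 0.09 (SE 0.09) in Het, uncalled.

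By ranges alone, the Hom libraries lay wholly above WT for 5 of the 36 genes (Arf5, Arf4, Sec22b, Tmed2 and Sec24a) and wholly below for 8 (Sec23b, Copg1, Sec13, Tmed3, Sec31a, Cope, Tmed9 and Copz1), beside 9.9% of all genes with separate ranges. For Het these were 2 above (Arf5 and Tmed2) and 4 below (Sec23b, Copg1, Sec13 and Cope), beside 2.57% of all genes.

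Hom and Het embryos were compared directly in the same fit. The rule for the set named no comparison, and this one shares its libraries with the comparisons with WT. Its p-values are therefore not taken as independent of the choice of the set. None of the 36 genes was called, beside 0.00805% of all genes tested (1 gene, Myt1l). At an unadjusted limma p below 0.05 there were 0 of the 36 and 636 of all genes. For Copg1 the difference was -0.02 (SE 0.08, 95% interval -0.20 to 0.15, adjusted p = 0.991 by limma). For Arf5 it was 0.07 (95% interval -0.13 to 0.28), for Tmed2 0.11 (-0.10 to 0.31), for Tmed9 -0.12 (-0.27 to 0.03) and for Sec13 -0.13 (-0.28 to 0.03). Intervals of this width leave room for differences of about the size seen between Het and WT in Tmed9 and Sec13, and a p that misses the threshold does not show equality. Myt1l itself differed between these groups by -1.04 (SE 0.16).

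The adult PFC came from other animals and was taken as not used in choosing the set, so the 36 genes were tested there. None was called in Het against WT, beside 0.404% of all 12870 genes tested (52 genes, 23 higher and 29 lower), and the median difference was -0.05 beside 0.01 for all genes. With median centring the split over all genes was 20 higher and 51 lower, and with the GC and length correction 24 and 18. At an unadjusted limma p below 0.05 there were 4 of the 36 and 1749 of all genes tested. No member's WT and Het ranges were separate, beside 0.668% of all genes. The erythroid list summed to 333 to 576 CPM in WT and 318 to 503 in Het, and Hbb-bt of that list was called lower. Its part in these values was not tested.

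Copg1 in the PFC ran from 215 (F06) over 228 to 236 (M11) CPM in WT and from 189.6 (F02) over 213.5 to 226 (M08) in Het. The groups overlapped, and the difference was -0.12 (SE 0.05, adjusted p = 0.328 by limma). The 3 Het females, at 189.6, 189.7 and 205 CPM, were below all WT libraries, and the 3 Het males, at 222 to 226, were within the WT range. The genotype by sex term for Copg1 was 0.16 (SE 0.10, adjusted p = 0.681 by limma), so a difference between the sexes was not called. Labelled sex was also partly tied to the library identifiers, as set out below. Copg2 ran from 35.3 over 43.1 to 48.1 CPM in WT and from 34.5 over 39.3 to 45.6 in Het, at -0.10 (SE 0.07). The Copg1 share of the pair was 83.7% ± 1.04 in WT and 83.5% ± 0.618 in Het (SD, n = 6 each).

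Arf5 had the lowest p of the 36 genes in the PFC. It ran from 111 over 146 to 175 CPM in WT and from 97.4 over 105 to 139 in Het, and the difference was -0.33 (SE 0.11, adjusted p = 0.177 by limma). Tmed2 ran from 27.7 over 46.3 to 53.6 CPM in WT and from 21.6 over 33.8 to 45.0 in Het, at -0.34 (SE 0.20, adjusted p = 0.490 by limma). Both pairs of ranges overlapped. The libraries lowest for Arf5 in each group, WT F06 and M03 and Het F02 and F04, were also the lowest for Tmed2, which was seen only on inspection of the values. Golga2 was at -0.22 (SE 0.09, adjusted p = 0.246 by limma) and Kdelr3 at 0.57 (SE 0.24, adjusted p = 0.291 by limma). Kdelr3 was near the filter of 1 CPM, at 0.29 to 1.26 CPM in WT and 0.93 to 2.09 in Het, and it passed that filter mainly through Het libraries.

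The other 5 genes called in the embryo were not called in the PFC. Sec13 ran from 107 over 114 to 116 CPM in WT and from 111 over 117 to 125 in Het, at 0.07 (SE 0.05, adjusted p = 0.611 by limma). Cope ran from 317 over 337 to 375 CPM in WT and from 314 over 363 to 399 in Het, at 0.07 (SE 0.06). Copz1 ran from 194.5 over 210.3 to 239 CPM in WT and from 219.5 over 223.5 to 229.0 in Het, at 0.08 (SE 0.05). The groups overlapped for all 3, with the Het mean above the WT mean in each. Sec23b ran from 44.8 over 51.4 to 56.0 CPM in WT and from 40.0 over 51.8 to 57.6 in Het, at -0.05 (SE 0.08). Tmed9 ran from 375 over 398 to 409.5 CPM in WT and from 358 over 409 to 440.3 in Het, at 0.04 (SE 0.05).

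The most abundant member of each further role was also uncalled in the PFC. Sar1b ran from 168 over 181 to 203.5 CPM in WT and from 175.5 over 202 to 209.8 in Het, at 0.11 (SE 0.06). Arf1 ran from 779.5 over 827 to 839 CPM in WT and from 778 over 828.99 to 862 in Het, at 0.01 (SE 0.05, 95% interval -0.09 to 0.11). Kdelr2 ran from 75.2 over 82.9 to 95.1 CPM in WT and from 80.3 over 86.2 to 89.7 in Het, at 0.04 (SE 0.06). These groups overlapped throughout. Sec22b ran from 168 over 176 to 186 CPM in WT and from 163 over 173 to 203 in Het, at 0.01 (SE 0.06).

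The genotype by sex term was also fitted in the PFC, with 3 libraries per genotype and labelled sex. Labelled sex was partly confounded with the number that opens each library's identifier (its prefix), whose meaning is not given. In the PFC, prefix 14308 held only males, and every Het female carried 14309. None of the 36 genes was called, beside 0% of all 12870 genes tested. At an unadjusted limma p below 0.05 there were 3 of the 36 (Copa, Sec23b and Gorasp2), or 8.33%, beside 1092 of all genes, or 8.48%. The term was positive, that is, the Het difference was more negative in females, for 24 of the 36, for all 8 COPI subunits and for 6408 of all 12870 genes. Its sign changed under at least 1 alternative fit for 15 of the 36, the COPI subunits Copb2, Cope and Copg2 among them. For Sec23b it was 0.36 (SE 0.14, adjusted p = 0.521 by limma), with Het females at 40.0, 41.3 and 48.9 CPM and Het males at 54.6, 56.4 and 57.6. For Copa it was 0.26 (SE 0.12, adjusted p = 0.576 by limma), with Het females at 77.1, 82.5 and 96.0 CPM and Het males at 99.3, 101 and 103. For Gorasp2 it was 0.34 (SE 0.12, adjusted p = 0.497 by limma). In all 3 genes, which were picked by this same term, the Het females lay below the Het males. None of the terms passed the threshold.

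WT levels were set side by side for the 2 tissues. The tables were normalised separately, so these ratios carry no test and hold only on the scale of each table. Of the 36 genes, 23 were lower in adult PFC and 13 higher. That is 63.9% lower, beside 43.9% of the 11580 genes tested in both tissues, Aldoa left out. By ranges that did not overlap, 17 of the 36 were lower and 8 higher, beside 31.7% of all genes lower and 42.8% higher. The median log2 ratio of adult to embryo was -0.26, beside 0.23 for all genes. Sec13 was 486 ± 26.1 CPM in WT embryos and 112.5 ± 3.98 in WT adults (SD, n = 6 each), and Sec16a 32.96 ± 6.18 and 8.07 ± 0.680. Lower adult values also held for Copb2 (216 ± 17.8 and 72.2 ± 5.24), Copz1 (601 ± 23.0 and 212 ± 15.4) and Arf4 (627 ± 44.0 and 199 ± 7.32). Kdelr3 had the lowest ratio of all, at 10.6 ± 1.38 and 0.831 ± 0.351 CPM. Higher adult values held for Arf3 (86.1 ± 8.56 and 446 ± 22.9), Arf5 (29.0 ± 2.81 and 143 ± 22.004), Gorasp2 (36.9 ± 2.80 and 99.997 ± 7.15) and Golga2 (11.2 ± 0.995 and 26.3 ± 2.70). Copg1 was at 267 ± 15.0 and 227 ± 7.23 CPM, with separate ranges, and Arf1 at 785 ± 10.9 and 819 ± 21.98, with ranges that overlapped.

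**Figure D3:**
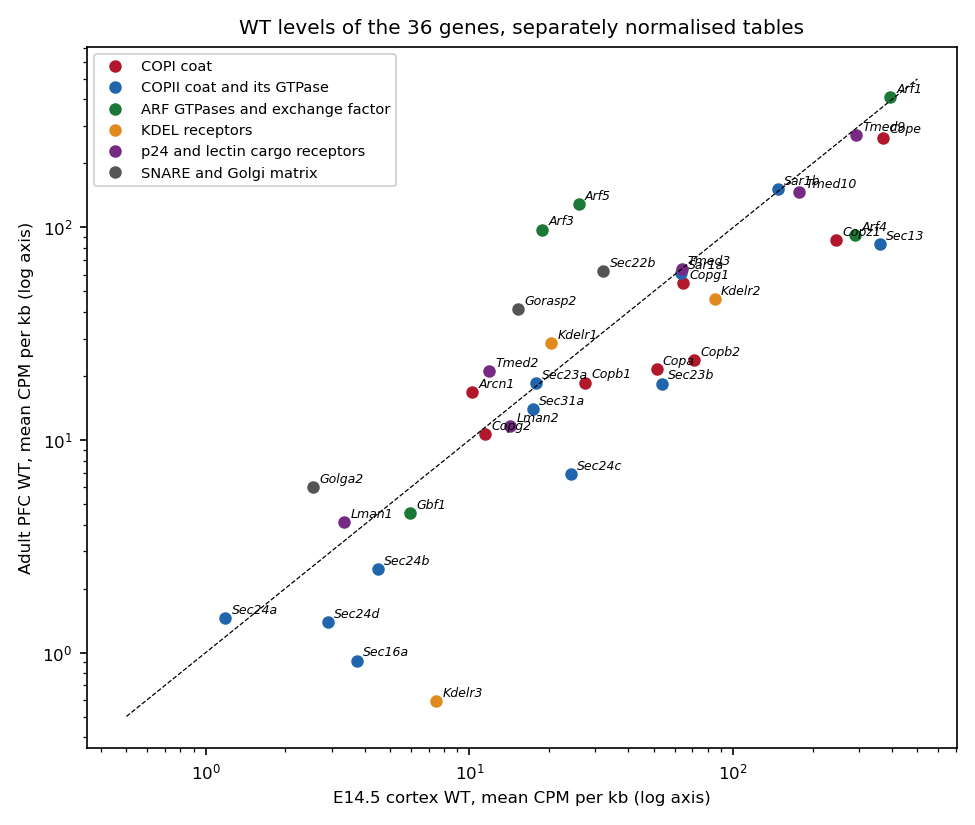
Mean WT level of each of the 36 genes per kilobase of transcript in E14.5 cortex (horizontal, log axis) and adult PFC (vertical, log axis), coloured by role; the dashed line marks equal values on the 2 separately normalised scales. Arf3, Arf5 and Gorasp2 lie well above the line, and Sec13, Arf4, Copz1, Sec24c, Sec16a and Kdelr3 well below it.

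The order of WT levels per kilobase was largely kept between tissues (Spearman rho 0.873 over the 36 genes, which share libraries, given as a description). Arf1 led in both, at 394 CPM per kilobase in embryos and 411 in adults. In embryos Cope, Sec13 and Tmed9 followed, at 371, 359 and 293, and in adults Tmed9, Cope and Sar1b, at 272, 265 and 151. Sec24a was lowest in embryos at 1.19 and Kdelr3 in adults at 0.589.

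The make-up of some paralog families per kilobase differed between the tissues. Arf3 was 2.59% ± 0.299 of the 4 ARF genes in WT embryos and 13.4% ± 0.566 in WT adults (SD, n = 6 each). Arf5 was 3.57% ± 0.339 and 17.6% ± 2.19, and Arf4 39.7% ± 1.59 and 12.6% ± 0.527. The Arf5 share was 4.82% ± 0.441 in Het (n = 6) and 4.94% ± 0.543 Hom embryos (n = 4). Sec23b was 75.03% of the Sec23 pair in WT embryos and 49.97% ± 2.87 in WT adults, and Sec24c 73.8% ± 1.59 and 56.5% ± 2.13 of the 4 Sec24 genes. Each share is a ratio within a library, and the tissues were not tested against each other.

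**Figure D4:**
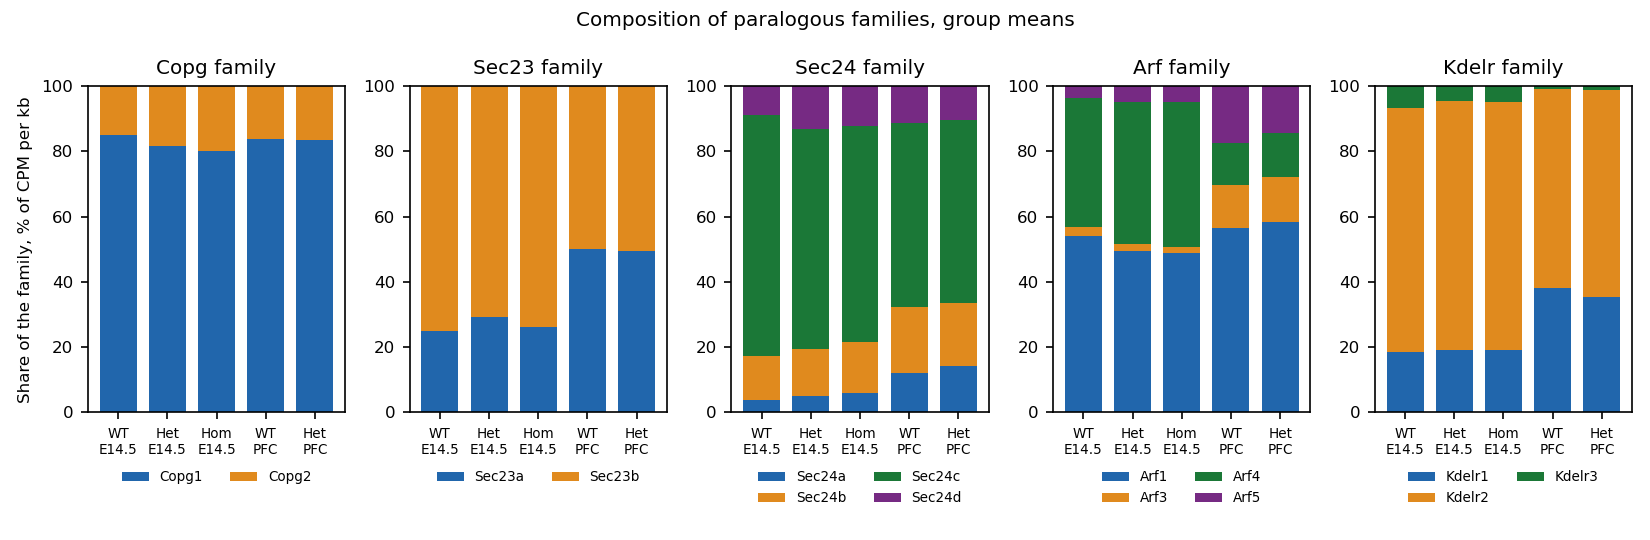
Share of each paralog in its family, as percent of the summed CPM per kilobase (group means), for the Copg, Sec23, Sec24, Arf and Kdelr families in the 5 groups. The mean embryonic Copg1 share is 84.9% in WT, 81.7% in Het and 79.9% in Hom, with Het libraries overlapping both other groups. The embryo and adult bars differ most in the Arf and Sec23 families.

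Other genes of the route were read from 6 further lists, which like the set were drawn up with earlier results known, so their embryonic values are a description too. Calls in them stand beside the same 7.6% of all genes in Hom and 5.83% in Het, and 0.404% in the PFC. Of 16 further COPI, COPII and ARF genes tested, 2 were called in Hom against WT. Arf6, an ARF of the cell surface, was higher at 0.43 (SE 0.13), and Arfgap2, a GTPase-activating protein of the COPI coat, was lower at -0.39 (SE 0.10). In Het only Arfgap2 was called, at -0.40 (SE 0.09). The list's median was 0.03 in Hom and 0.02 in Het. Of 14 further cargo receptors, the p24 gene Tmed7 was higher at 0.52 (SE 0.12) in Hom and 0.51 (SE 0.11) in Het, and Ergic3 was lower at -0.39 (SE 0.07) in Hom. In Het, Ergic3 was at -0.22 (SE 0.07) and was not called.

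Of 52 tether, SNARE and RAB genes, 4 were called higher and 8 called lower in Hom, and 3 higher and 6 lower in Het. By sign alone 29 were positive in Hom and 30 in Het, with list medians of 0.03 and 0.04. The 3 with the lowest p in Hom were Gosr2, a Golgi SNARE, at -0.41 (SE 0.08), Nsf, the ATPase that takes SNARE complexes apart, at -0.45 (SE 0.10), and Cog4, a Golgi tether subunit, at -0.38 (SE 0.09). In Het they were called at -0.28, -0.41 and -0.31. Of 26 unfolded protein response and ER chaperone genes, Pdia6, a disulphide isomerase, was lower at -0.31 (SE 0.07) and the chaperone Hyou1 at -0.52 (SE 0.16) in Hom, and Dnajb9 was higher at 0.59 (SE 0.15) in Het. The other 24 and 25 were not called, and the list's median was 0.05 in both.

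Of 6 genes of the CREB3 family and its proteases, Creb3 was lower in Hom at -0.28 (SE 0.09), and none was called in Het, where 1 had an unadjusted limma p below 0.05. Of 22 translocon and signal-recognition genes, Srp9 was higher at 0.46 (SE 0.08) and Srprb, a subunit of the signal recognition receptor, lower at -0.39 (SE 0.09) in Hom. In Het, 5 were called higher (Spcs1, Srp9, Spcs2, Sec61b and Sec61g) and Srprb was lower. In the PFC no gene of the 6 lists was called. In the last 5 of these lists, in the order above, the lowest unadjusted p there belonged to Ergic1 at -0.15 (SE 0.06), Cog1 at -0.36 (SE 0.12), Atf6b at -0.30 (SE 0.07, adjusted p = 0.0648 by limma), Mbtps2 at -0.10 (SE 0.13) and Sec11a at 0.17 (SE 0.06), one in each list. In the 6 lists, in the same order, unadjusted limma p-values below 0.05 numbered 1 of 16, 2 of 14, 4 of 52, 4 of 26, 0 of 5 and 3 of 22 genes tested. Over all genes tested in the PFC the share was 13.6%.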

How the data were processed

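Per the labels' protocols, a Zymo kit was used for RNA and a SMARTer Ultra Low RNA kit for the libraries. The submitters' processing notes name Trimmomatic, Bowtie2, STAR, HTSeq and build mm10, with no versions or settings. Whether counting used strand is not given in the sources used here. The deposited values are log2 CPM that the authors adjusted by RUVr (removal of unwanted variation), per the file names. The values show that 2 directions of variation had been removed in the embryonic table and 1 in the adult table, which can make p-values too small.

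CPM were recovered as 2 to the power of the log2 value minus its lowest value. These give whole adjusted numbers, not reads, so depth is unknown and no count test was run. Tests used limma 3.58.1 in R 4.3.3 on log2(CPM + 0.5), with trend and robust settings, genotype and labelled sex, over genes that reached 1 CPM in 4 or more embryonic or 6 or more PFC libraries. The Benjamini-Hochberg adjustment covered all genes tested, with a threshold of 0.05. A 0.5 pseudocount understates changes of low genes. Annotation was GENCODE vM21, and near-identical copies (98%) were sought with BLAST 2.17.0. Figures were drawn with matplotlib 3.10.9.

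The 36 genes, the lists and the tests were chosen with earlier results of these data known. Library values were given for Copg1, Copg2, each called member and the most abundant member per kilobase of each role. From each further list, up to 3 called genes with the lowest p were named, or otherwise the 1 with the lowest p. Some genes that this rule or the marker lists would name are not reported here. Alternatives changed the pseudocount, filter, scaling, covariates, libraries in the fit and eBayes settings, and left out each library in turn.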

Additional observations from a re-analysis of the deposited data

Results flagged for a closer look

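In 6 of 180 combinations of gene and group, 1 library stood apart from the rest by Dixon's test at the 95% level, where chance flags about 1 in 20. For Copg1, WT embryo F05 was lowest at 238.854 CPM against 265.6 to 280.1 in the others, and Hom embryo M02 was highest at 207.353 against 175.4 to 178.3. Hom embryo F01 was lowest for Sec24a, at 10.1472 CPM against 10.97 to 10.99. Hom embryo F04 was highest for Tmed9, at 366.672 CPM against 329.3 to 330.2. WT embryo F06 was lowest for Tmed10, at 220.83 CPM against 264.2 to 279.3. PFC Het M09 was lowest for Arf3, at 388.226 CPM against 448.3 to 477.9.

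For 3 genes every Het library moved one way from the WT mean in the embryo and the opposite way in the PFC. The PFC difference minus the embryonic one was -0.77 for Arf5, -0.26 for Kdelr1 and 1.00 for Kdelr3 on the log2 scale. These differences were not tested, and the 2 tables were normalised separately. The embryonic values are those taken to have chosen the set. No share of all genes with this pattern is given, so nothing is read from the count. Kdelr3 lay near the filter of 1 CPM in the PFC, at 0.29 to 1.26 CPM in WT.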

How the results depend on the processing

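No member called over all libraries changed sign under the alternatives run, and no member was called with the opposite sign. Among uncalled members the sign changed under at least 1 alternative for 4 of 36 in Hom against WT, 5 in Het against WT, 21 in Hom against Het (Copg1 among them), 6 in the PFC and 15 in the interaction. Their differences were at most 0.16 in size. In Hom against WT, 511 genes were called with the removed RUVr directions as covariates and 468 without trend and robust settings. Members called were 4 without those settings and 14 with only Hom and WT libraries. In that last fit the count of all genes stayed within 1.5-fold of the 944 of the main fit. The members it added were Arcn1, Arf4, Sec22b and Sec24a (higher) and Arf3, Sec24c and Tmed3 (lower). Nothing is read from these member counts, as the set was chosen on these comparisons. In Het against WT, 335 genes were called with the RUVr directions, 225 without trend and robust settings, 389 with only Het and WT libraries and 1087 without Het F10 and Het M11, and members called were 3 without trend and robust settings. In Hom against Het, 0 genes were called with the identifier prefix as a block, the RUVr directions, no trend and robust settings or the GC and length correction. In the PFC, 2 genes were called without sex, 19 with the identifier prefix as a block, 17 with the RUVr directions and 0 without trend and robust settings, and the interaction gave 1 gene under the GC and length correction. Leaving out each library in turn gave 489 to 1105 genes and 5 to 9 members in Hom against WT. It gave 131 (without Het F07) to 1176 (without Het M07) genes and 3 to 12 members in Het against WT, 0 to 1 genes in Hom against Het, 3 to 130 in the PFC and 0 to 13 for the interaction. No member was called in Hom against Het, in the PFC or in the interaction in any of these. The cause was not tested where counts moved, beyond fewer samples in the fits that drop libraries. No paired analysis was possible because the numbers in the labels name separate animals. The number of libraries, not a known depth, limits what could be detected.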
